A study of Mus musculus with 9 samples.

Results

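Genes of glycolysis, of lactate formation and export and of the pentose phosphate pathway were followed in transferred CD8+ T cells given agonism of CD27, blockade of PD-1 and PD-L1, or both. The list held 33 genes, and each gene was taken as the probe set that named it with the highest mean over 9 arrays. A probe set named 30 of the 33. Gpi1, Eno1 and G6pdx were named by no probe set used here, so that the second step of glycolysis, the main enolase and the first step of the pentose phosphate pathway were not analysed here. The 30 genes were read within a table of 32209 probe sets, each with its own gene or set of genes.

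The cells were pmel1 CD8+ T cells, which carry a transgenic receptor for a gp100 peptide, bore the Thy1.1 marker and were given at 2000000 per mouse to naive congenic recipients. All mice were injected intravenously with 100 µg of human gp100 peptide (hgp100) together with antibodies that added up to 400 µg, and every group had at least 1 active antibody. The combination group was given 200 µg of agonist anti-CD27 (AT124), 100 µg of anti-PD-1 (RMP1-14) and 100 µg of anti-PD-L1 (10F.9G2). The anti-CD27 group was given 200 µg of AT124 and 200 µg of isotype control antibody, and the anti-PD-1/L1 group 100 µg of each blocking antibody and 200 µg of isotype control antibody. Spleens were taken on day 4 after the peptide, Thy1.1+ CD8+ cells were sorted from each of 3 mice per group, and the RNA of each mouse was run on an array of its own. No depletion of the recipients' own T cells is stated, and the strain, sex and age of the mice were not given in the sources used here. Separate mice stand behind the arrays of a group, so that the tests draw on the spread between mice, pooled over the 3 groups.

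Glycolysis splits glucose into pyruvate and yields ATP without oxygen, and activated CD8+ T cells are known to turn much of that pyruvate into lactate while they divide. The pentose phosphate pathway takes glucose 6-phosphate aside to make NADPH and ribose for nucleotides. HIF-1, whose regulated subunit is encoded by Hif1a, and Myc are known inducers of many genes of glycolysis in T cells.

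The values are log2 RMA values as the authors deposited them, so that differences are log2 ratios. The 3 anti-PD-1/L1 arrays stood apart from the other 6. Their positive control probe sets averaged 5.75 ± 0.19 (SD, n = 3), against 6.81 ± 0.04 on the combination arrays and 6.70 ± 0.02 on the anti-CD27 arrays, each with an exact two-sided permutation p of 0.1, the smallest that 3 against 3 can give. The 6 measured T cell markers averaged 10.10 ± 0.06 on combination arrays, 10.24 ± 0.01 on anti-CD27 arrays and 9.17 ± 0.28 on anti-PD-1/L1 arrays, and all 6 lay above the negative controls on every array. None of the 26 measured markers of B cells, erythroid cells, myeloid cells and platelets lay above the negative controls on all arrays of any group, and 1 of them, Itgam, passed as higher in the combination than in anti-CD27. Array quality, sort and treatment cannot be told apart for anti-PD-1/L1, since no label gives a batch. Of all probe sets, 72% passed the test between the combination and anti-PD-1/L1, 70.4% between anti-CD27 and anti-PD-1/L1 and 1.72% between the combination and anti-CD27. In bulk samples, fewer cells of a type and less RNA per cell cannot be told apart.

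A probe set was read as detected in a group if it lay above the 95th percentile of the negative control probe sets of its array, which averaged 5.61 ± 0.07 on combination arrays, 5.83 ± 0.05 on anti-CD27 arrays and 5.98 ± 0.13 on anti-PD-1/L1 arrays. By this measure 20 of the 30 genes were detected on at least 1 array and 10 on none. The 10 were Hk2, Pfkm, Pfkfb3, Pfkfb4, Aldoc, Eno2, Bpgm, Ldhb, Slc16a3 and Pdk1. The background control probe sets, which are graded by GC content, have a higher 95th percentile of 6.83 ± 0.10 on combination arrays, 6.94 ± 0.10 on anti-CD27 arrays and 8.27 ± 0.17 on anti-PD-1/L1 arrays. By that stricter measure 14 genes were detected on all 3 arrays of the combination, 10 in anti-CD27 and 2, Gapdh and Pgk1, in anti-PD-1/L1. Of the 30 genes, 22 have the same deposited value on 2 or more arrays, as have 64.9% of all tested probe sets, and 8 have 1 value on all 3 arrays of a group. For these 8 the spread within that group is 0 and does not show how its mice differ. What equal values do to the SE and p was not tested.

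**Figure D1:**
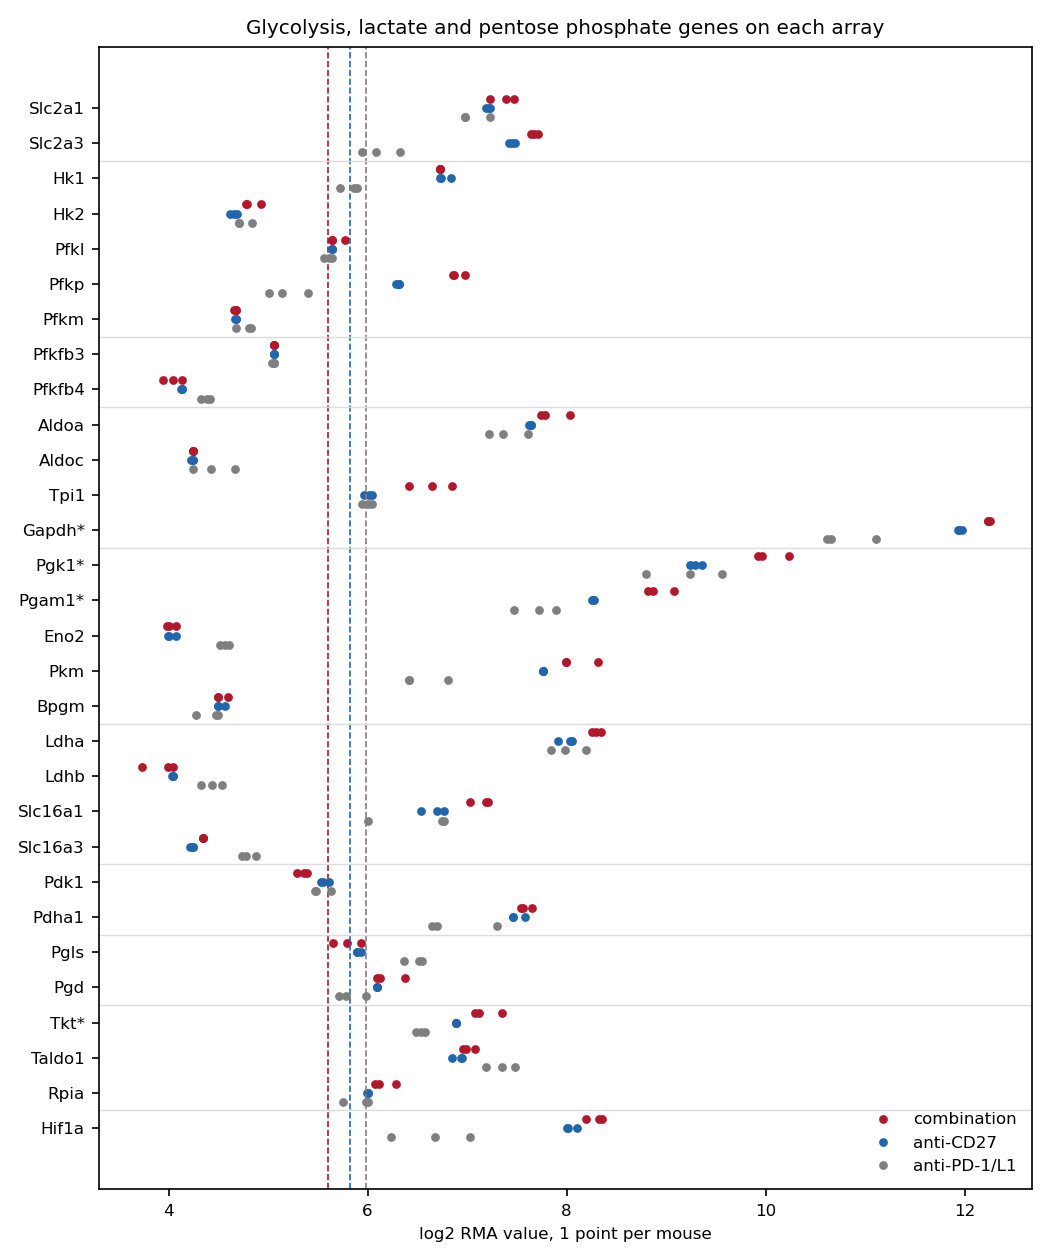
Each row is a gene in the order of the pathway and each point an array, with its log2 RMA value on the horizontal axis. Dashed lines are the group means of the 95th percentile of the negative control probe sets (5.61, 5.83 and 5.98 in the order of the legend). An asterisk marks a probe set that names several genes or lies on another chromosome than the gene. The combination points of Pfkp, Tpi1 and Pgam1 lie to the right of all other arrays.

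The combination and anti-CD27 groups differ in whether PD-1 and PD-L1 were blocked beside the CD27 agonist. The platelet isoform of phosphofructokinase (Pfkp, at the committed step of glycolysis), triose phosphate isomerase (Tpi1) and phosphoglycerate mutase (Pgam1) rose in the combination by 1.51-, 1.54- and 1.58-fold. None of the 30 genes was called lower and 27 did not pass. The 3 rises are 10.0% of the 30 genes, against 1.72% of all probe sets called (1.21% higher and 0.503% lower). All 30 genes lie among the 16105 probe sets with the highest means, and in a test of these alone 5.05% passed, 3.58% as higher and 1.47% as lower, with 4 of the 30 genes, Pgk1 among them (adjusted p = 0.0497). The 30 genes had a median log2 difference of 0.13, against -0.00283 over all probe sets, and 22 of the 30 differences were above 0. The arrays of the groups did not overlap for 17 of the 30 genes and for 20.5% of all probe sets.

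Pfkp was at 6.86, 6.87 and 6.98 in the combination, 6.32, 6.28 and 6.32 in anti-CD27 and 5.40, 5.14 and 5.01 in anti-PD-1/L1. Its 3 combination arrays lay above the other 6, and the 3 anti-PD-1/L1 arrays lay lowest. The difference from anti-CD27 was 0.60 ± 0.09 (log2 difference ± SE, limma's test with Benjamini-Hochberg adjustment over all probe sets, adjusted p = 0.0169). Tpi1, which interconverts the triose phosphates, was at 6.42, 6.64 and 6.85 in the combination, 6.05, 5.97 and 6.01 in anti-CD27 and 6.01, 5.94 and 6.05 in anti-PD-1/L1. Its anti-CD27 and anti-PD-1/L1 arrays overlapped and all lay below the combination (difference from anti-CD27 0.63 ± 0.10, adjusted p = 0.0181). By the stricter GC-graded controls Tpi1 was detected on no array and Pfkp in the combination alone, so that their fold changes rest on the negative controls as the measure of detection. The probe set of Pgam1, which shifts the phosphate of 3-phosphoglycerate, was at 8.82, 8.87 and 9.08 in the combination, 8.26, 8.27 and 8.26 in anti-CD27 and 7.89, 7.72 and 7.47 in anti-PD-1/L1. The groups did not overlap, and the difference from anti-CD27 was 0.66 ± 0.11 (adjusted p = 0.0228).

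The promoters of these genes and of Ldha, the lactate dehydrogenase chain of the same pathway, are shown because HIF-1 and Myc, known inducers of glycolysis, bind short motifs that can be read in them. Each line gives 250 bases before to 50 after the start from RefSeq, build GRCm38.p6, 5′ to 3′ on the gene's strand, with the first listed start where there are several. Capitals mark ACGTG and GCGTG, the core letters of the HIF element, and CACGTG, the E-box that Myc binds, which holds ACGTG within it, on either strand.
Pfkp, chr13:6648722-6649021, minus strand: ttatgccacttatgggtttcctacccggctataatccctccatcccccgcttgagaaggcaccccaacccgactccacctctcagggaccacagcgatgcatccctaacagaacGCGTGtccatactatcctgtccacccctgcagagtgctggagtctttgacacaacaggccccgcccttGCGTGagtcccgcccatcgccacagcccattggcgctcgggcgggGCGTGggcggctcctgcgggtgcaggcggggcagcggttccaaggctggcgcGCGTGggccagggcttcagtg
Tpi1, chr6:124814109-124814408, minus strand: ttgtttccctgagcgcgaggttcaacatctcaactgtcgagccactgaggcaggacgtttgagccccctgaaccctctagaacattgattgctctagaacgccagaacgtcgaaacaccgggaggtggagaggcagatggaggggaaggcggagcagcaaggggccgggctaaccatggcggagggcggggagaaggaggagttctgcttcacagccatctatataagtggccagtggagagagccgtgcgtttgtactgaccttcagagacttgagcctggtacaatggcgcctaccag
Pgam1, chr19:41911621-41911920, plus strand: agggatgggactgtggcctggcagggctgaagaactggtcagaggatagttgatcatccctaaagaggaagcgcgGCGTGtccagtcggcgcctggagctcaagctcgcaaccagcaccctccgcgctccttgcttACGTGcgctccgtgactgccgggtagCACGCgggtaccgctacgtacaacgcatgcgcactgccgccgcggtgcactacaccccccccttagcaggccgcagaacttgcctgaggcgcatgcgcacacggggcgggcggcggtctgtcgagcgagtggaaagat
Ldha, chr7:46845554-46845853, plus strand: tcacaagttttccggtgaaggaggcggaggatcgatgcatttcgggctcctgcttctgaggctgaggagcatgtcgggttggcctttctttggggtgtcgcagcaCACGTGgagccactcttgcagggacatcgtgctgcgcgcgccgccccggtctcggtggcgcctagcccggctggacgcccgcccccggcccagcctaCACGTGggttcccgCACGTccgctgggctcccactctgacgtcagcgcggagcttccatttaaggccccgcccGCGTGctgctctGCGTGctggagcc
The Pfkp window held 4 stretches in capitals, the Pgam1 window 3 and the Ldha window 5, with CACGTG among those of Ldha. None of the motifs was in the Tpi1 window. Ldha did not pass between the combination and anti-CD27, and the probe set on which Pgam1 passed lies on another chromosome than the promoter shown. RefSeq promoters were listed for 32 of the 33 genes, 46 in all, and ACGTG was in 41.3% of them, against 19.6% of all 32851 promoters. The shares were 58.7% against 32.4% for GCGTG and 10.9% against 7.15% for CACGTG. The median GC content was 60.8% in promoters of the listed genes and 52.7% in all promoters, and motifs rich in CG were not compared at equal GC content.

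The chosen probe sets of Gapdh, Pgk1 and Pgam1 lie on another chromosome than their gene, by the chromosome written in the probe set's ID. In 99.7% of the probe sets that name 1 gene, that chromosome was the one RefSeq gives for the gene. The probe set of Gapdh also names Gm7336 and that of Pgam1 also names Pgam1-ps2, and RNA of the genes named together cannot be told apart on it. The probe set of Pgam1 on its own chromosome 19 was at 7.92, 7.91 and 8.18 in the combination, 7.62, 7.67 and 7.59 in anti-CD27 and 7.69, 7.36 and 7.38 in anti-PD-1/L1, and it did not pass (difference from anti-CD27 0.38 ± 0.11, adjusted p = 0.161 among all probe sets). Another probe set, naming Gm8910 with Pgam1, had a difference of 0.63 ± 0.13 (adjusted p = 0.0646). The call of Pgam1 therefore rests on the probe set shared with Pgam1-ps2, though all 3 combination arrays lay above all 3 anti-CD27 arrays on each of the probe sets.

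**Figure D2:**
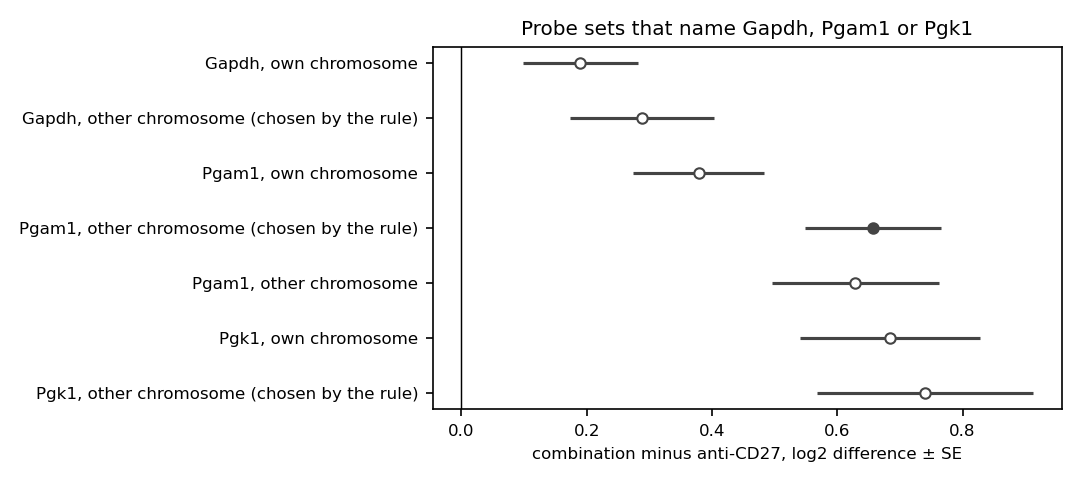
Each point is a probe set that names Gapdh, Pgam1 or Pgk1, with the log2 difference of the combination from anti-CD27 on the horizontal axis and bars of 1 SE. The filled point passed the test. The probe sets of Pgk1 lie close to each other (0.68 and 0.74), while that of Pgam1 on its own chromosome lies lower (0.38) than the chosen one (0.66).

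**Figure D3:**
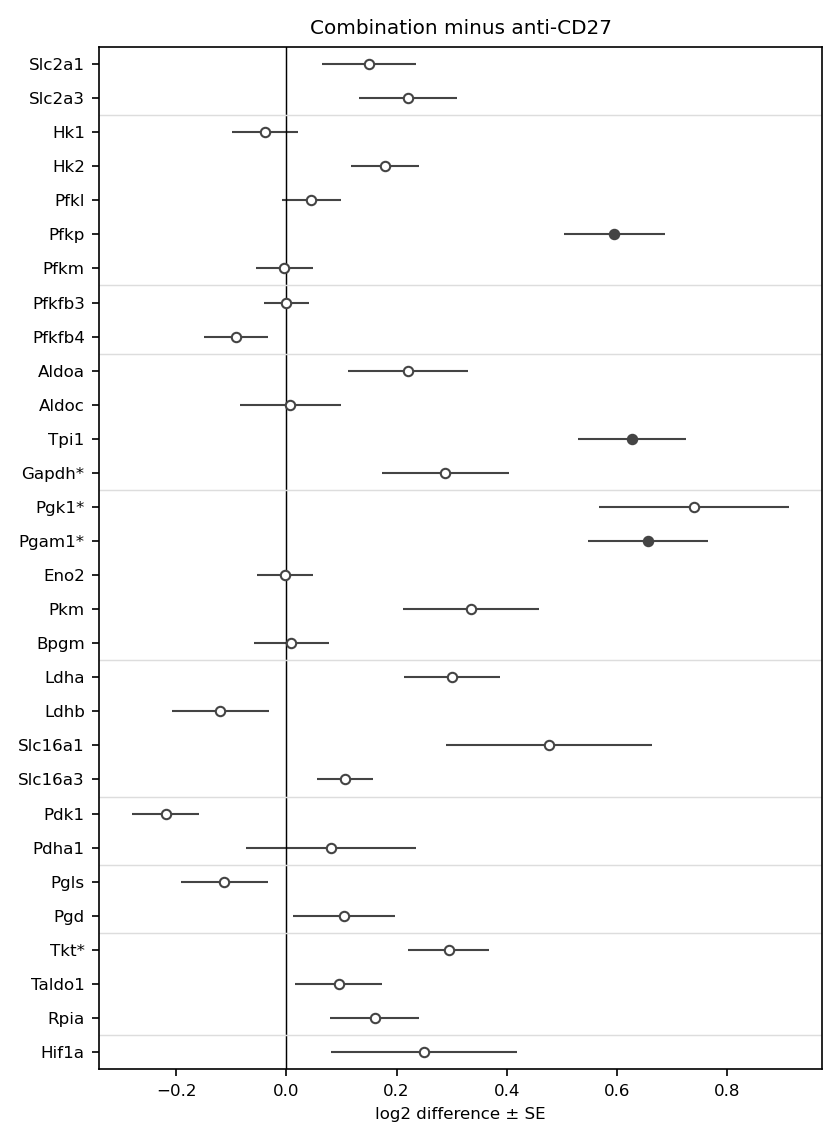
Log2 difference of the combination from anti-CD27 for each of the 30 genes in the order of the pathway, with bars of 1 SE over a fit of 9 arrays. Filled points passed the test (Pfkp, Tpi1 and Pgam1), and most other points lie between 0 and 0.5.

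Other genes of the trunk of glycolysis had values in the same direction without passing. Pgk1, the first enzyme of the pathway to make ATP, was at 9.92, 9.96 and 10.24 in the combination, 9.25, 9.30 and 9.36 in anti-CD27 and 9.56, 8.79 and 9.24 in anti-PD-1/L1. The combination lay above the other arrays, and its difference from anti-CD27 was the largest of the 30 (0.74 ± 0.17, adjusted p = 0.0885). The Pgk1 probe set on its own chromosome X was at 8.67, 8.66 and 8.85 in the combination, 7.95, 8.07 and 8.12 in anti-CD27 and 8.30, 7.66 and 7.92 in anti-PD-1/L1, with a difference of 0.68 ± 0.14 (adjusted p = 0.0616). The Gapdh probe set, for the enzyme that reduces NAD+ in glycolysis, was at 12.25, 12.24 and 12.23 in the combination, 11.93, 11.95 and 11.97 in anti-CD27 and 11.11, 10.66 and 10.62 in anti-PD-1/L1. All 3 combination arrays lay above all 3 anti-CD27 arrays, by 0.29 ± 0.12 (adjusted p = 0.428), and the anti-PD-1/L1 arrays lay lowest. The Gapdh probe set on its own chromosome 6 had a difference of 0.19 ± 0.09 (adjusted p = 0.607). Pkm, the pyruvate kinase of most tissues, was at 7.996, 7.997 and 8.314 in the combination, 7.77, 7.77 and 7.77 in anti-CD27 and 6.81, 6.41 and 6.42 in anti-PD-1/L1. Its groups did not overlap either, and the difference from anti-CD27 was 0.34 ± 0.12 (adjusted p = 0.356). Aldolase A (Aldoa), which splits the 6-carbon sugar, was at 7.74, 7.79 and 8.04 in the combination, 7.64, 7.64 and 7.63 in anti-CD27 and 7.61, 7.22 and 7.36 in anti-PD-1/L1. Its combination arrays lay above all anti-CD27 arrays, by 0.22 ± 0.11 (adjusted p = 0.627).

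At the entry of glucose, neither transporter passed. Slc2a3, the high-affinity glucose transporter GLUT3, was at 7.67, 7.64 and 7.71 in the combination, 7.42, 7.48 and 7.45 in anti-CD27 and 6.32, 6.08 and 5.94 in anti-PD-1/L1. The combination and anti-CD27 did not overlap, and their difference was 0.22 ± 0.09 (adjusted p = 0.434). Slc2a1, the transporter GLUT1, was at 7.23, 7.39 and 7.47 in the combination, 7.22, 7.23 and 7.19 in anti-CD27 and 7.23, 6.98 and 6.98 in anti-PD-1/L1. Its lowest combination value equalled the highest of anti-CD27 and of anti-PD-1/L1 (0.15 ± 0.09, adjusted p = 0.746). Hk1, the hexokinase that traps glucose in most cells, was at 6.73, 6.73 and 6.73 in the combination, 6.84, 6.74 and 6.73 in anti-CD27 and 5.86, 5.89 and 5.73 in anti-PD-1/L1, with a difference of -0.04 ± 0.06 between the combination and anti-CD27 (adjusted p = 1.00). Hk2, the inducible hexokinase, was not above the negative controls on any array.

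In lactate formation and export, Ldha was at 8.26, 8.29 and 8.35 in the combination, 7.92, 8.03 and 8.05 in anti-CD27 and 8.19, 7.85 and 7.99 in anti-PD-1/L1. The 3 combination arrays lay above the other 6, and the difference from anti-CD27 was 0.30 ± 0.09 (adjusted p = 0.185). Slc16a1, the lactate carrier MCT1, was at 7.03, 7.21 and 7.19 in the combination, 6.70, 6.54 and 6.76 in anti-CD27 and 6.76, 6.00 and 6.75 in anti-PD-1/L1. It showed the same order, with a difference of 0.48 ± 0.19 and a wide spread in anti-PD-1/L1 (adjusted p = 0.411). Slc16a3, the carrier MCT4, and Ldhb, the other main lactate dehydrogenase chain, were not detected in any group. At the gate to mitochondria, Pdk1, a kinase that shuts off pyruvate dehydrogenase, was also undetected, at 5.39, 5.29 and 5.36 in the combination, 5.62, 5.54 and 5.55 in anti-CD27 and 5.64, 5.47 and 5.48 in anti-PD-1/L1. Its combination arrays lay below all anti-CD27 arrays (adjusted p = 0.158), and no difference is given because both are at background. Pdha1, a subunit of pyruvate dehydrogenase, differed by 0.08 ± 0.15 (adjusted p = 1.00).

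In the pentose phosphate pathway none of the 5 measured genes passed between the combination and anti-CD27. Transketolase (Tkt), of the non-oxidative branch, was at 7.12, 7.08 and 7.35 in the combination, 6.89, 6.89 and 6.89 in anti-CD27 and 6.58, 6.54 and 6.48 in anti-PD-1/L1 on a probe set that also names the microRNA gene Mir3076. The groups did not overlap, with a difference of 0.29 ± 0.07 between the combination and anti-CD27 (adjusted p = 0.111). Rpia, which makes ribose 5-phosphate, was at 6.08, 6.12 and 6.28 in the combination, 6.00, 6.00 and 5.99 in anti-CD27 and 6.00, 5.99 and 5.75 in anti-PD-1/L1, and its combination arrays lay above all anti-CD27 arrays (0.16 ± 0.08, adjusted p = 0.649). Differences were 0.09 ± 0.08 for transaldolase (Taldo1), 0.10 ± 0.09 for the second dehydrogenase of the oxidative branch (Pgd) and -0.11 ± 0.08 for the lactonase between the dehydrogenases (Pgls), with adjusted p of 0.975, 0.997 and 0.896.

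Hif1a was at 8.36, 8.33 and 8.20 in the combination, 8.01, 8.02 and 8.11 in anti-CD27 and 7.03, 6.67 and 6.23 in anti-PD-1/L1. The combination lay above anti-CD27 by 0.25 ± 0.17 without passing (adjusted p = 0.87). Another probe set, naming Gm15283 with Hif1a, was below the negative controls on every array. Of 21 measured partners, regulators and targets of HIF outside glycolysis, limma's test called none (4 at an unadjusted p under 0.05), with a median of 0.00121 and 11 differences above 0. The HIF target Ero1a, an oxidase of the endoplasmic reticulum, had the largest difference of these (0.55 ± 0.16, adjusted p = 0.185). It also called none among 22 other genes of glycolysis, 19 of pyruvate and lactate handling and 10 of the pentose phosphate pathway, where 3, 5 and 0 had an unadjusted p under 0.05. Each of these lists had a median of 0.02. The share of all probe sets with an unadjusted p under 0.05 was not counted. The largest differences were 0.32 ± 0.10 in Bsg, the chaperone of the lactate carriers (adjusted p = 0.264), 0.57 ± 0.12 in Me2, a mitochondrial malic enzyme (adjusted p = 0.0641), and 0.29 ± 0.14 in Prps1, which makes the activated ribose of nucleotides (adjusted p = 0.625).

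The 3 calls between the combination and anti-CD27 rest on few arrays. With any 1 anti-CD27 array left out, or combination replicate 2, none of the 3 passed, and 8 or 9 of the 30 genes had an unadjusted p under 0.05. Without combination replicate 1 or 3, Tpi1 alone passed, while without anti-PD-1/L1 replicate 1 or 2 the count was 7 or 5. The shares of all probe sets that passed with an array left out were not counted, with or without adjustment. The shared spread includes that of the anti-PD-1/L1 arrays: in a fit of the 6 arrays compared, 8 genes were higher and 1 lower, while 5.33% of all probe sets passed and 3.95% were higher. With array weights per group 11 genes passed, against 7.2% of all probe sets. After quantile normalization Pgk1 passed as well (0.85 ± 0.14, adjusted p = 0.0179). The 9 genes of the fit of 6 arrays were, beside Pfkp, Tpi1 and Pgam1, Pgk1, Gapdh, Ldha, Slc16a1 and Slc2a3 as higher and Pdk1 as lower, named here after their values were seen. On the combination arrays, replicate 3 was the highest for 16 of the 20 detected genes, and for 35.7% of the 16105 probe sets with the highest means. On the anti-PD-1/L1 arrays, replicate 1 was the highest for 16 of the 20, and the share over all probe sets was not counted for these arrays.

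The combination and anti-PD-1/L1 groups differ in the CD27 agonist, given in place of isotype control antibody. Of the 30 genes, 17 were higher in the combination, 7 lower and 6 did not pass, which is 80.0% called against 72% of all probe sets. Higher calls were 56.7% of the genes, against 19.1% of all probe sets and 36.8% of the 16105 with the highest means, tested alone. Lower calls were 23.3% of the genes, against 52.9% of all probe sets and 40.5% of the 16105. The median difference was 0.30, against -0.25 over all probe sets and -0.03 over the 16105. After quantile normalization 10 genes were higher and 6 lower, with a median of 0.06 against -0.04 over all probe sets. Aldoa, Ldha, Pdha1, Pgd, Rpia, Slc16a1, Slc2a1, Tkt and Tpi1 were then no longer called higher, nor Ldhb and Pfkfb4 lower. Some of the calls after quantile normalization are therefore among the 6 genes that did not pass as deposited, none of them above the negative controls in anti-PD-1/L1. Of all probe sets 53% then passed, 23.5% as higher and 29.5% as lower.

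Pfkp passed, with means of 6.90 ± 0.07 in the combination and 5.19 ± 0.20 in anti-PD-1/L1. Pfkp was below the negative controls on all anti-PD-1/L1 arrays, and set against their level it was at least 1.89-fold higher in the combination (adjusted p = 1.4e-06). Hif1a was higher by 1.65 ± 0.17, Slc2a3 by 1.56 ± 0.09 and Pkm by 1.55 ± 0.12, with adjusted p of 4.56e-05, 2.05e-06 and 1.29e-05. The Gapdh probe set was higher by 1.44 ± 0.12 (adjusted p = 1.35e-05), that of Pgam1 by 1.23 ± 0.11 (adjusted p = 2.22e-05) and Hk1 by 0.91 ± 0.06 (adjusted p = 4.51e-06). Each of these 7 kept its call after quantile normalization. With the mean of the positive controls as a covariate in limma's test none of the 7 passed (adjusted p from 0.158 in Pfkp to 0.978 in Gapdh). Hif1a then turned negative. That covariate and the group cannot be told apart, and the share of all probe sets that passed with it was not counted. On their own chromosomes, the probe set of Gapdh was higher by 1.02 ± 0.09 (adjusted p = 2.44e-05) and that of Pgam1 by 0.53 ± 0.11 (adjusted p = 0.0019). For all 7 genes the 3 combination arrays lay above all anti-PD-1/L1 arrays, and the arrays of these groups did not overlap for 24 of the 30 genes and for 73.2% of all probe sets. Hk1 was above the negative controls on 1 of the anti-PD-1/L1 arrays and Slc2a3 on 2. By the GC-graded controls only Gapdh and Pgk1 were measured in both groups, and the lower limits were 1.56-fold for the chosen Pgam1 probe set and 1.01-fold for Hif1a, with none for Pfkp, Slc2a3, Pkm and Hk1. On its own chromosome, the combination values of Pgam1 lay under the GC-graded level of the anti-PD-1/L1 arrays (mean 8.27), so that it has no lower limit.

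Smaller rises were seen in Pgk1 (0.84 ± 0.17), Pdha1 (0.70 ± 0.15), Tkt (0.65 ± 0.07), Slc16a1 (0.64 ± 0.19), Tpi1 (0.64 ± 0.10) and Aldoa (0.46 ± 0.11). Pgd was at 6.12, 6.09 and 6.38 in the combination, 6.09, 6.09 and 6.09 in anti-CD27 and 5.98, 5.78 and 5.71 in anti-PD-1/L1, and higher by 0.37 ± 0.09. Slc2a1 (0.30 ± 0.09), Ldha (0.29 ± 0.09) and Rpia (0.24 ± 0.08) also passed, with adjusted p of 0.0121, 0.0151 and 0.0246. After quantile normalization these 3 had differences of -0.14, -0.08 and -0.09 and did not pass, so that their direction depends on the scaling. Rpia also did not pass without combination replicate 3 or anti-PD-1/L1 replicate 3 (adjusted p up to 0.0863). Of the 7 named before them, Pgk1 alone passed after quantile normalization. The T cell markers had a median difference of 1.15, with 4 of 6 higher and 1 lower, and their part in these differences was not tested.

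Of the 7 genes called lower in the combination, 5, Pfkfb4, Eno2, Ldhb, Slc16a3 and Pdk1, were below the negative controls in both groups, and no fold is given. Pdk1 did not pass without combination replicate 2 or 3 (adjusted p up to 0.0891), in the fit of 6 arrays (0.0594) or with array weights (0.061), nor did Pfkfb4 (0.522) and Ldhb (0.0632) after quantile normalization. Eno2, an enolase best known from neurons, was at 3.98, 4.01 and 4.08 in the combination, 3.99, 4.08 and 4.00 in anti-CD27 and 4.56, 4.52 and 4.61 in anti-PD-1/L1, and Slc16a3 at 4.34, 4.34 and 4.34 in the combination, 4.21, 4.25 and 4.25 in anti-CD27 and 4.74, 4.78 and 4.88 in anti-PD-1/L1. Ldhb was at 3.99, 3.73 and 4.04 in the combination, 4.04, 4.04 and 4.04 in anti-CD27 and 4.54, 4.44 and 4.33 in anti-PD-1/L1, and Pfkfb4, of the enzymes that set fructose 2,6-bisphosphate, at 3.94, 4.05 and 4.13 in the combination, 4.13, 4.13 and 4.13 in anti-CD27 and 4.39, 4.42 and 4.32 in anti-PD-1/L1. The median of all transcript probe sets was also higher on the anti-PD-1/L1 arrays, at 3.07 ± 0.05, against 2.73 ± 0.01 in the combination and 2.75 ± 0.01 in anti-CD27. The others, Pgls and Taldo1, were above the negative controls and belong to the pentose phosphate pathway. Pgls was at 5.80, 5.65 and 5.93 in the combination, 5.90, 5.93 and 5.89 in anti-CD27 and 6.54, 6.52 and 6.36 in anti-PD-1/L1, with a difference of -0.68 ± 0.08 between the combination and anti-PD-1/L1 (adjusted p = 9e-05). Taldo1 was at 6.98, 6.96 and 7.08 in the combination, 6.95, 6.94 and 6.85 in anti-CD27 and 7.35, 7.19 and 7.48 in anti-PD-1/L1, with a difference of -0.33 ± 0.08 (adjusted p = 0.00475). For both the anti-PD-1/L1 arrays lay above the other 6, while for Tkt and Pgd of the same pathway they lay below the other 6. By the GC-graded controls neither was detected in anti-PD-1/L1. The 6 genes that did not pass were Hk2, Pfkl, Pfkm, Pfkfb3, Aldoc and Bpgm.

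**Figure D4:**
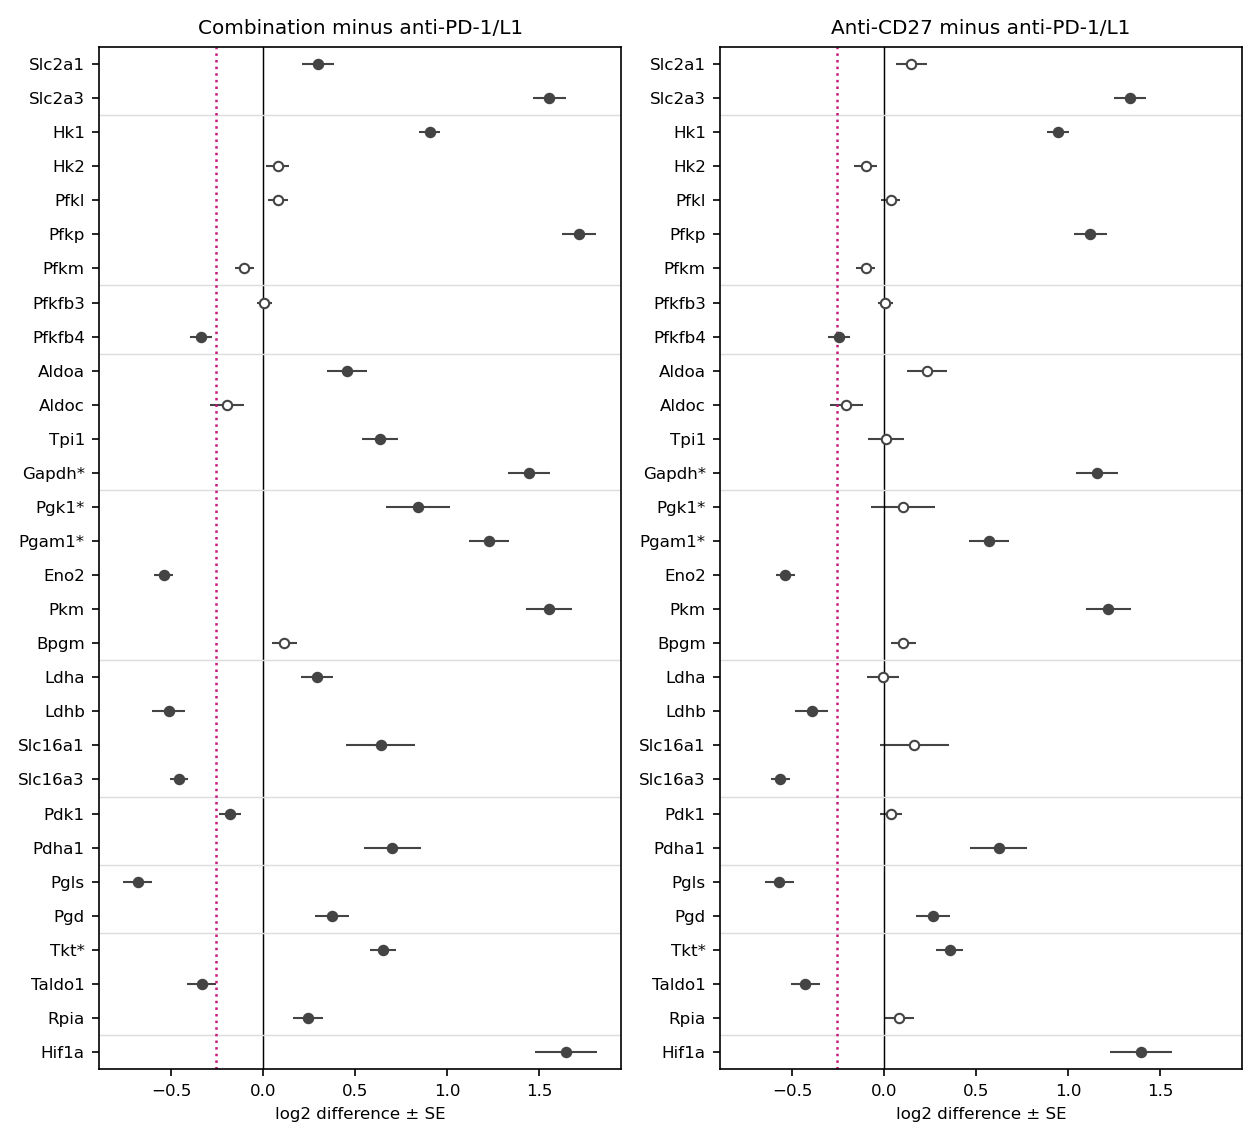
Log2 differences from anti-PD-1/L1 of the combination (left) and of anti-CD27 (right) for the 30 genes in the order of the pathway, with bars of 1 SE. Filled points passed the test, the solid line is 0 and the dotted line the median of all probe sets (-0.25 and -0.26). Both panels share the anti-PD-1/L1 arrays. Pfkp, Eno2, Ldhb, Slc16a3, Pfkfb4, Pdk1, Hk2, Pfkl, Pfkm, Pfkfb3, Aldoc and Bpgm, not above the negative controls in anti-PD-1/L1, are drawn at their measured differences.

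Anti-CD27 and anti-PD-1/L1 are the single treatments, each given with isotype control antibody. Of the 30 genes, 10 were higher in anti-CD27, 6 lower and 14 did not pass, which is 53.3% called against 70.4% of all probe sets. Higher calls were 33.3% of the genes, against 17.2% of all probe sets and 33.2% of the 16105 with the highest means, and lower calls 20.0%, against 53.2% of all probe sets and 41% of the 16105. The arrays did not overlap for 19 of the 30 genes and for 72.3% of all probe sets. The median difference was 0.09, against -0.26 over all probe sets. After quantile normalization it was -0.02 with 8 genes higher and 8 lower, not all of them called as deposited. Of all probe sets 51.7% then passed, 21.4% as higher and 30.3% as lower. The anti-PD-1/L1 arrays are those of the preceding comparison, and the T cell markers had a median difference of 1.29, whose part was not tested.

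Hif1a was higher in anti-CD27 by 1.40 ± 0.17, Slc2a3 by 1.34 ± 0.09, Pkm by 1.22 ± 0.12 and the Gapdh probe set by 1.16 ± 0.12, with adjusted p of 0.000124, 5.44e-06, 4.94e-05 and 4.68e-05. The Gapdh probe set on its own chromosome was higher by 0.83 ± 0.09 (adjusted p = 7.8e-05). Pfkp was at least 1.25-fold higher (adjusted p = 1.78e-05) and Hk1 was higher by 0.94 ± 0.06 (adjusted p = 3.9e-06). The Pgam1 probe set was higher by 0.57 ± 0.11 (adjusted p = 0.00155), while that on its own chromosome had a difference of 0.15 ± 0.11 (adjusted p = 0.218). Pdha1 was at 7.54, 7.56 and 7.66 in the combination, 7.47, 7.58 and 7.47 in anti-CD27 and 7.30, 6.69 and 6.65 in anti-PD-1/L1, higher in anti-CD27 by 0.62 ± 0.15 (adjusted p = 0.00644, and 0.115 after quantile normalization). Tkt and Pgd also passed as higher (0.36 ± 0.07 and 0.27 ± 0.09), but after quantile normalization they were at -0.04 and -0.03 and did not pass. With any 1 anti-CD27 array or anti-PD-1/L1 replicate 2 or 3 left out, Pgd did not pass (adjusted p up to 0.0900). Hk1 and Pgd were each above the negative controls on 1 anti-PD-1/L1 array. By the GC-graded controls, Gapdh alone of the genes called higher was measured in both groups. Hif1a, Slc2a3, Pkm, Pgam1, Pdha1 and Tkt then have no lower limit, and Pfkp, Hk1 and Pgd were detected in neither group. Pgls and Taldo1 were lower in anti-CD27, with differences of -0.57 ± 0.08 and -0.43 ± 0.08 (adjusted p of 0.000271 and 0.00128). The other genes called lower, Eno2, Slc16a3, Ldhb and Pfkfb4, were at background in both groups, and of these Ldhb (adjusted p = 0.201) and Pfkfb4 (0.979) did not pass after quantile normalization.

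Several genes of the trunk and of lactate handling did not pass between the single treatments as deposited. Tpi1 differed between anti-CD27 and anti-PD-1/L1 by 0.01 ± 0.10 (adjusted p = 0.929), Ldha by -0.01 ± 0.09 (adjusted p = 0.937) and Pgk1 by 0.10 ± 0.17 (adjusted p = 0.599). Slc16a1 differed by 0.16 ± 0.19 (adjusted p = 0.446) and Slc2a1 by 0.15 ± 0.09 (adjusted p = 0.144). For Tpi1, Ldha, Pgk1 and Slc16a1 the anti-CD27 and anti-PD-1/L1 arrays overlapped, and all 3 combination arrays lay above both. A p that misses the threshold does not show equal levels, and after quantile normalization Ldha (-0.32), Tpi1 (-0.31) and Slc2a1 (-0.24) passed as lower in anti-CD27.

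Of the HIF list, 6 of 21 genes were higher in the combination than in anti-PD-1/L1 and 9 lower, while 19.1% of all probe sets were higher and 52.9% lower. Against the same anti-PD-1/L1 arrays, 7 were higher in anti-CD27 and 11 lower, beside 17.2% and 53.2% of all probe sets. The prolyl hydroxylase Egln1, which marks HIF for destruction, was higher by 1.77 ± 0.12 in the combination and by 1.40 ± 0.12 in anti-CD27, and Ero1a by 1.52 ± 0.16 and 0.97 ± 0.16, each above the negative controls on 1 anti-PD-1/L1 array. Kdm3a, a histone demethylase and HIF target, was below the negative controls in anti-PD-1/L1. Set against their level, it was at least 1.29-fold higher in either other group. Arnt, the partner of HIF, passed as higher in both, with a lower limit of 1.05-fold in anti-CD27 and none in the combination. Of the genes called lower in the combination, 6 of 9 were below the negative controls in both groups, as were 8 of 11 in anti-CD27. Those include Adm, Vegfa and P4ha2, for which no fold is given. The others called lower in the combination, named after their values were seen, were Ddit4 (-0.26 ± 0.10), Egln2 (-0.20 ± 0.04) and Vhl (-0.34 ± 0.07). Vhl was above the negative controls on only 2 combination arrays and 1 anti-PD-1/L1 array, so that its difference lies near background.

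Of all probe sets, 19.1% were higher in the combination than in anti-PD-1/L1 and 52.9% lower, and the counts of the other lists stand beside these shares. Among the 22 other genes of glycolysis, 3 were higher in the combination than in anti-PD-1/L1 and 13 lower, of which 12 were below the negative controls in both groups. Of the 3 higher, Gpd2 was also below them in both groups. Bsg was above them on all arrays of both, with means of 8.89 ± 0.02 (SD) in the combination and 8.49 ± 0.23 in anti-PD-1/L1. Pgm1, a phosphoglucomutase, was at least 1.05-fold higher, while the glucose transporter Slc2a8, above the negative controls on 1 combination array and all anti-PD-1/L1 arrays, was lower, with a difference of -0.76 ± 0.08. Of 19 genes of pyruvate and lactate handling, 7 were higher and 9 lower, and all 9 were below the negative controls in both groups. Dlat, among the 7 higher, was also below them in both groups. Me2 was at least 1.89-fold higher, and Dld, a subunit shared by mitochondrial dehydrogenase complexes, was higher by 1.22 ± 0.17. Of 10 other genes of the pentose phosphate pathway, 2 were higher and 2 lower, with 0.85 ± 0.14 in Prps1, and both lower ones were below the negative controls in both groups. The lower limits of Pgm1 and Me2 are set against the negative controls. By the GC-graded level of the anti-PD-1/L1 arrays (mean 8.27), Pgm1, Me2, Dld and Prps1 have no lower limit.

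**Figure D5:**
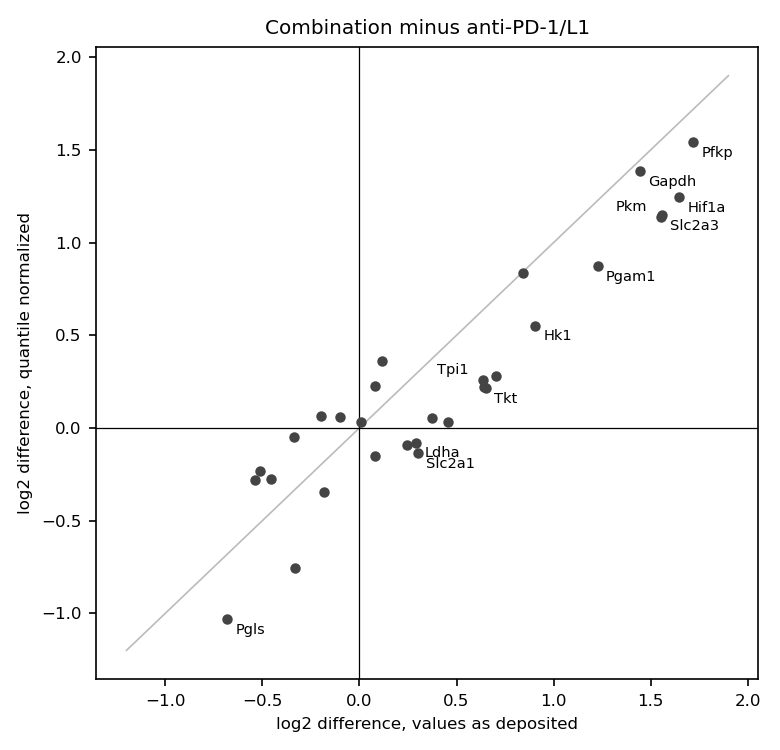
Log2 difference of the combination from anti-PD-1/L1 for the 30 genes, as deposited on the horizontal axis and after quantile normalization on the vertical axis, with the line of equality in grey. Pfkp, Gapdh, Hif1a, Slc2a3 and Pkm stay above 1 on both axes, while Ldha and Slc2a1 lie below 0 on the vertical axis. Genes not above the negative controls in anti-PD-1/L1, Pfkp among them, are drawn at their measured differences.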

How the data were processed

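The authors deposited 1 log2 value per probe set and array, and the submitters' processing notes name RMA and oligo 1.38.0. No source used here states a genome build. Names came from the platform's annotation, with symbols updated by gene ID through RefSeq. Of 65956 transcript probe sets, 30604 named 1 gene, 2146 several and 33206 none. 1 probe set per gene or set of genes was kept, that with the highest mean, which left 32209. limma 3.58.1 in R 4.3.3 fitted 1 mean per group to the 9 arrays (6 residual degrees of freedom), two-sided, with Benjamini-Hochberg adjustment and a threshold of 0.05, and no filter on low values. The fit was tested on simulated data. The number of mice, 3 per group, limits the precision. The labels do not say whether replicate numbers pair the mice. Correlations of deviations between same-numbered arrays of different groups ran from -0.20 to 0.16. Between arrays with different numbers they ran from -0.18 to 0.16. All 33 listed genes are accounted for, with values for every array of a gene that passed in any comparison. Other lists name those with the largest differences, and a few by whether they were detected. Members and lists were chosen with earlier results of these data known. The negative-control measure of detection and the probe sets on the gene's own chromosome were chosen after seeing the data.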

Additional observations from a re-analysis of the deposited data

How the results depend on the processing

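Between the combination and anti-CD27, 3 genes passed, against 9 with only the 6 arrays compared, 11 with array weights per group (7.2% of all probe sets) and 1 with the replicate block. Leaving out 1 array gave 0 to 7. With the replicate block 16 genes passed between anti-CD27 and anti-PD-1/L1 and 23 between the combination and anti-PD-1/L1, against 16 and 24 without it. With the mean of the positive controls as a covariate (positive control covariate), limma called 0 genes in both comparisons with anti-PD-1/L1 (4 for anti-CD27 and 5 for the combination at an unadjusted p under 0.05), and the covariate and the group cannot be told apart. The shares of all probe sets that passed with this covariate or with the replicate block were not counted, with or without adjustment. With the covariate, the differences of anti-CD27 from anti-PD-1/L1 turned to -0.13 in Gapdh, -0.54 in Hif1a, -0.99 in Pdha1, -0.25 in Pgam1 and -0.24 in Pgd. Those of the combination turned to -0.22 in Aldoa, -0.51 in Hif1a, -0.33 in Ldha, -1.09 in Pdha1, -0.20 in Pgd, -0.23 in Pgk1, -0.21 in Rpia and -0.33 in Slc2a1. Quantile normalization turned Pgd (-0.0254) and Tkt (-0.0412) for anti-CD27, and Ldha (-0.0801), Rpia (-0.0917) and Slc2a1 (-0.14) for the combination. The cause was not tested. Leaving out 1 array gave 15 to 18 calls between anti-CD27 and anti-PD-1/L1 and 21 to 26 between the combination and anti-PD-1/L1. Counts under the other alternatives stayed within 1.5 times the main ones. Signal over background limits the 10 genes below the negative controls on all arrays.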
